A study of Mus musculus with 9 samples.

Results

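Gene expression was compared between the substantia nigra of mice given the neurotoxin MPTP and that of mice given saline. The comparison takes the 3 MPTP and 3 vehicle libraries of a series of 9, and every gene with a mean of at least 0.5 FPKM (fragments per kilobase of exon, scaled to library depth) over the 9 libraries. That rule kept 15997 of the 55335 genes in the deposited table. MPTP mice were injected intraperitoneally with MPTP-HCl in saline, 20 mg/kg at each injection, 2 injections per week for 5 weeks, and had no running wheel. Vehicle mice had saline on the same schedule. The remaining 3 libraries come from mice given the same MPTP course and 2 months of voluntary wheel running. They enter here through the filter and through the fits, where they share the estimate of the spread. Their values are given for Igfbp2, H2-K1 and Gzmb only. The sources used here do not give strain, age, sex or the time from the last injection to dissection. Each group is described as 3 mice, but no label ties 1 mouse to 1 library, so p-values measure only the spread between these libraries, which may be technical.

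MPTP crosses the blood-brain barrier and is oxidised, mainly by monoamine oxidase B of glia, to MPP+, which dopaminergic neurons take up through the dopamine transporter and which inhibits complex I of the mitochondrial respiratory chain. Injured brain tissue holds activated microglia and astrocytes, and both can respond to interferons. Type I interferons act through the receptor pair IFNAR1 and IFNAR2, and interferon-gamma through IFNGR1 and IFNGR2. Janus kinases at these receptors activate transcription factors that bind the interferon-stimulated response element or the gamma-activated site. Their targets include antiviral effectors, the GTPases that attack membranes around intracellular microbes, and the machinery that loads peptides on class I molecules of the major histocompatibility complex (MHC).

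The DNA motifs of that pathway are shown because many of the genes described here are known as its targets. RefSeq promoters (GRCm38.p6, 250 bases before to 50 after each gene start) were searched on both strands for the core of the interferon-stimulated response element (ISRE core: GAAA, any 2 bases, GAAA) and for TTCNNNGAA, the core of the gamma-activated site. The 2 motifs can share bases, and N stands for any base. The ISRE core occurred in 1131 of all 32851 promoters (3.44%) and TTCNNNGAA in 2726 (8.3%). Of the interferon-induced GTPases tested, 10 of 14 had a promoter in the table, and 9 of their 11 promoters held the ISRE core (81.82%). Among interferon-stimulated antiviral genes, of which 27 of 33 were matched, it was 16 of 34 promoters (47.06%), and among class I MHC genes, of which 10 of 11 were matched, it was 3 of 11 (27.27%). None of the 20 promoters of choroid plexus genes held it. Neither motif was found in the promoters of Igfbp2 and H2-K1, which says only that those letters are not in these windows.

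The following stretches of 40 bases belong to tested members of the GTPase, antiviral and class I lists, not all of which are described with their values. They are written along the gene's own strand with the ISRE core in capitals (its reverse complement, TTTC, any 2 bases, TTTC, where the match is on the other strand).
Igtp: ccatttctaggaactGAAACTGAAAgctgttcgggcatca
Irgm2: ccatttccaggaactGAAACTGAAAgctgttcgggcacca
Tgtp1: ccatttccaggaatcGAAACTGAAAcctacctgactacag
Tgtp2: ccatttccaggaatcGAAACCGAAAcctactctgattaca
Irgm1: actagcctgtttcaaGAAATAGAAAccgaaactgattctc
Gbp2: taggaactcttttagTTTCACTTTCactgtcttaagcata
Gbp3: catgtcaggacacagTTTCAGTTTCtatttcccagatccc
Gbp5: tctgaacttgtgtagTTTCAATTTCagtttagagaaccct
Gbp7: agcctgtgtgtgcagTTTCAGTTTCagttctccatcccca
B2m: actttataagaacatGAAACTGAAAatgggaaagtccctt
Bst2: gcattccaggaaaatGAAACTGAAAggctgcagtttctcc
Isg15: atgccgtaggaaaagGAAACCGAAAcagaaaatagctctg
Ifit1: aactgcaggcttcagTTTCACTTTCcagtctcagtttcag
Ifit3: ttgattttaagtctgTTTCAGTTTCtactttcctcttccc

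The stretches of Igtp (chr11:58199507-58199546, plus strand) and Irgm2 (chr11:58214898-58214937, plus strand) were the same at 38 of 40 bases, and both genes code for immunity-related GTPases. In Igtp, Irgm2, Tgtp1 (chr11:48992299-48992338, minus strand) and Tgtp2 (chr11:49064258-49064297, minus strand) a TTCNNNGAA match ended 2 bases before the ISRE core. The Tgtp1 and Tgtp2 stretches were the same at 30 of 40 bases. The core began 34 bases before the start of Igtp, 45 before Gbp3 (chr3:142559984-142560023, plus strand), 139 before B2m (chr2:122147533-122147572, plus strand) and 124 before Bst2 (chr8:71537572-71537611, minus strand).

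Steps between low FPKM values put sequencing depth at about 22200000 to 26900000 fragments in the 6 libraries, and mitochondrial transcripts took 29.8% to 32.0% of each library's FPKM. The FPKM of a library summed to 318416 to 319431 in vehicle and 326614 to 347524 in MPTP libraries. Xist, expressed from the inactive X chromosome, was at 0.0083 to 0.0141 FPKM and the Y-linked Ddx3y at 10.2 to 16.2 FPKM in all 6 libraries. Markers of the neurons that define the substantia nigra differed between libraries, and not all in the same order. The mean log2(FPKM + 1) of tested dopaminergic markers was 2.43, 2.07 and 2.26 in vehicle replicates 1, 2 and 3. In MPTP replicates it was 2.47, 1.73 and 2.78. Of the vehicle libraries, replicate 3 was highest for Slc6a3 (10.8 FPKM) but lowest for Slc18a2 (3.62 FPKM) and Ddc (4.61 FPKM). Th, which makes the dopamine precursor, was lowest in MPTP replicate 2 (1.64 FPKM) and highest in vehicle replicate 3 (15.6 FPKM), and Pitx3, a transcription factor of midbrain dopaminergic neurons, did not exceed 0.187 FPKM. Markers of neighbouring regions also differed between libraries of 1 group. Thalamic Prkcd was at 48.3, 2.40 and 34.04 FPKM in vehicle replicates 1, 2 and 3 and at 3.30, 2.93 and 43.4 FPKM in MPTP replicates 1, 2 and 3. Tph2 of serotonergic neurons was at 18.2, 7.57 and 0.124 FPKM in vehicle and 13.6, 1.74 and 15.07 FPKM in MPTP libraries. Hcrt, the orexin precursor of the lateral hypothalamus, was at 14.4 FPKM in vehicle replicate 3 and at most 0.219 FPKM in the other 5. Hindbrain Hox genes summed to 2.40 and 5.14 FPKM in MPTP replicates 1 and 2 and 2.33 FPKM in vehicle replicate 2, and to at most 0.106 FPKM in the other 3. Vehicle replicate 3 also carried more transcripts of red blood cells and neutrophils (445 FPKM summed, against 36.3 to 67.2 in the other 5).

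Over all tested genes, 2 rose in MPTP mice and 0 fell (limma on log2(FPKM + 1), Benjamini-Hochberg adjusted p under 0.05), which is 0.0125% and 0% of 15997. At an unadjusted p under 0.05 there were 417 higher genes (2.61%) and 237 lower genes (1.48%), together 4.09%. The groups did not overlap for 832 genes higher in MPTP (5.2%) and 676 lower (4.23%), together 9.43%. A log2 fold change above 0 was found for 48.1% of genes, with a median of -0.006. The filter takes the mean over all 9 libraries, so a gene can pass it through high values in 1 group. The GTPases Iigp1 and Gbp6 passed it through their MPTP values (vehicle means 0.378 and 0.442 FPKM). So did H2-Q7, H2-Aa and Tap1 of the MHC and peptide loading lists (0.207, 0.431 and 0.380 FPKM). Counts of higher list members are therefore partly set by the filter. Fold changes are differences of log2(FPKM + 1) between MPTP and vehicle, which understate changes of genes near or under 1 FPKM. In such bulk tissue, fewer cells of a type and less RNA per cell cannot be told apart.

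Igfbp2 codes for a circulating binding protein of the insulin-like growth factors. It was at 13.1, 14.1 and 12.7 FPKM in vehicle replicates 1, 2 and 3 and at 26.6, 26.8 and 24.03 FPKM in MPTP replicates 1, 2 and 3. The groups did not overlap, and the 3 MPTP libraries were close to each other. The log2 fold change was 0.91 (SE 0.08, 95% interval 0.73 to 1.09, limma adjusted p = 0.0211). Igfbp2 lies at chr1:72824503-72852474 (GRCm38, plus strand, protein coding). H2-K1, a classical class I heavy chain that presents peptides to CD8 T cells, was at 5.13, 5.73 and 5.77 FPKM in vehicle and at 12.1, 17.2 and 14.9 FPKM in MPTP libraries. Its lowest MPTP library was MPTP replicate 1, still above all vehicle libraries. The log2 fold change was 1.26 (SE 0.12, 95% interval 0.98 to 1.53, limma adjusted p = 0.0265). H2-K1 lies at chr17:33996017-34000347 (GRCm38, minus strand, protein coding), and reads shared with near-identical class I genes make its level uncertain. In the libraries of running mice Igfbp2 was at 14.6, 15.2 and 14.4 FPKM and H2-K1 at 6.41, 7.20 and 6.88 FPKM.

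Both calls rested on the spread estimated over 9 libraries. With the 6 MPTP and vehicle libraries alone neither gene passed (limma adjusted p = 0.172 for Igfbp2 and 0.214 for H2-K1). Neither passed without MPTP replicate 2 (adjusted p = 0.0503 for both) or 3 (0.0733 and 0.167). Leaving out vehicle replicate 3 also ended both calls (0.107 and 0.125), as did a fit without running replicate 1 (0.0546 and 0.0598), 2 (0.0642 and 0.0773) or 3 (0.0961 and 0.108). H2-K1 alone missed the threshold without vehicle replicate 1 (0.0770) or 2 (0.101), or with no filter on mean FPKM (0.0524). With a choroid plexus score as covariate the fold changes were 1.02 and 1.38 (adjusted p = 0.157 and 0.181). With the replicate number as a block both passed (adjusted p = 0.0415), and Enpp2, described with the choroid plexus, passed as well. With the block on the 6 MPTP and vehicle libraries alone, neither Igfbp2 nor H2-K1 passed (adjusted p = 0.131).

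**Figure D1:**
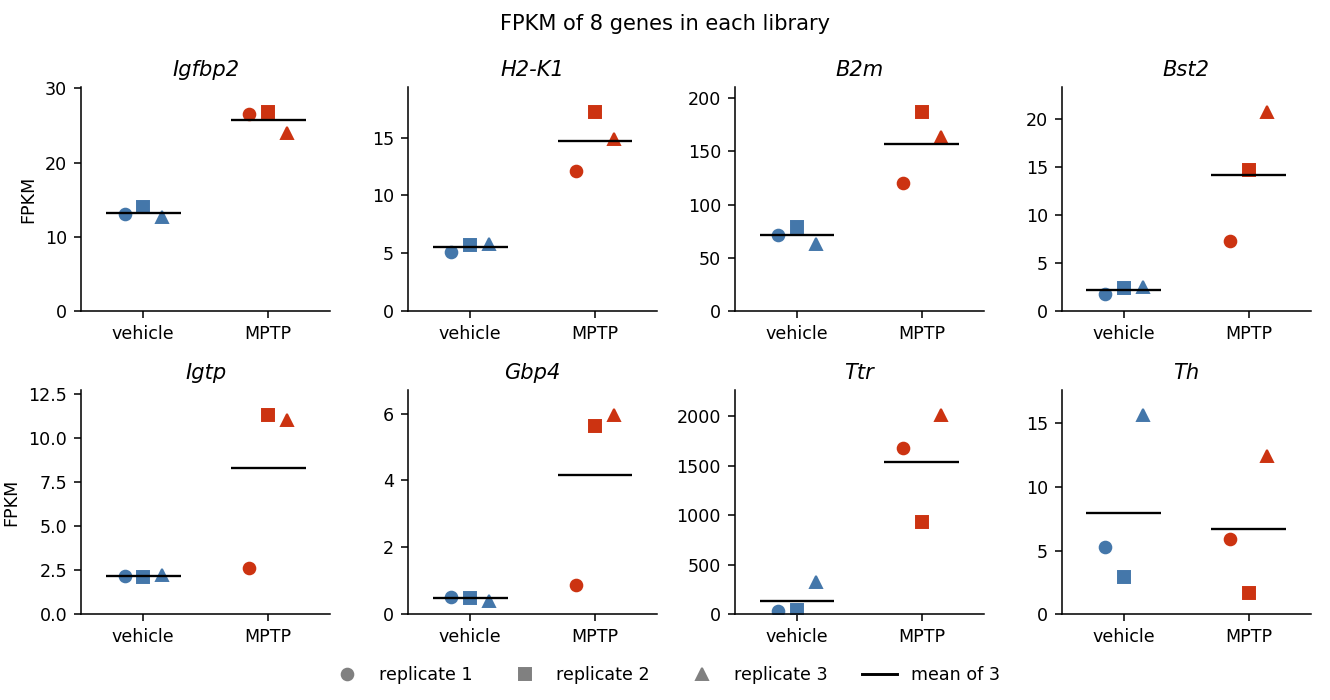
FPKM of 8 genes in each of the 3 vehicle and 3 MPTP libraries, with marker shape for the replicate number and a line at the group mean. Igfbp2, H2-K1, B2m and Bst2 show no overlap between groups, Igtp and Gbp4 are near the vehicle level in MPTP replicate 1, and Th overlaps between the groups.

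**Figure D2:**
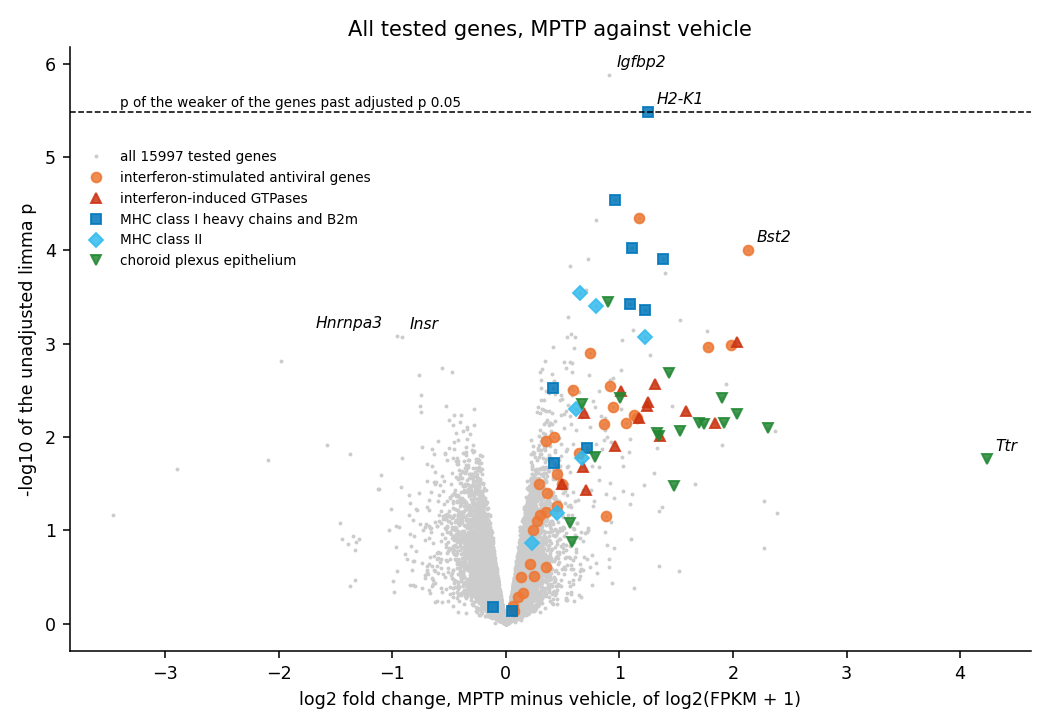
Log2 fold change (MPTP minus vehicle) against -log10 of the unadjusted limma p for 15997 genes, with 5 gene lists in color and a dashed line at the p of H2-K1, the weaker of the 2 genes past adjusted p 0.05. The colored genes lie almost wholly on the side higher in MPTP.

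Of 11 tested class I heavy chains and B2m, 10 were higher in MPTP libraries, 9 at an unadjusted p under 0.05 and 9 with groups that did not overlap, and 1 (H2-K1) passed over all genes. The median log2 fold change was 0.96, against -0.006 over all tested genes. B2m, the light chain that all class I molecules share, was at 72.0, 79.3 and 62.9 FPKM in vehicle and 120.3, 187 and 163 FPKM in MPTP libraries. Its groups did not overlap, and its log2 fold change was 1.11 (SE 0.16, limma adjusted p = 0.223). H2-D1, the other classical heavy chain tested, was at 19.1, 18.6 and 13.5 FPKM in vehicle and at 30.2, 45.4 and 37.3 FPKM in MPTP libraries (1.10, SE 0.20, limma adjusted p = 0.393). H2-Q4, H2-Q6 and H2-Q7 are nonclassical chains of the Q region. H2-Q4 was at 1.82, 1.75 and 2.09 FPKM in vehicle and 4.19, 8.95 and 7.32 FPKM in MPTP libraries (1.39, SE 0.21, limma adjusted p = 0.223), part of it over exons shared with an overlapping annotated gene. H2-Q7 was at 0.275, 0.136 and 0.211 FPKM in vehicle and 1.02, 1.45 and 1.60 FPKM in MPTP libraries (limma adjusted p = 0.153). The nonclassical H2-T23, which presents class I leader peptides to natural killer receptors, had a log2 fold change of 0.71, H2-T22 one of 0.41 and H2-M3, which presents formylated bacterial peptides, one of 0.43. H2-Q2 (log2 fold change -0.11) and H2-T24 (0.06) overlapped between groups. In the heavy chains, but not in B2m, reads may be split among near-identical copies.

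Lists of the steps that supply class I molecules with peptides had smaller medians. Of 8 tested genes of peptide loading 6 were higher, 3 at an unadjusted p under 0.05, and the median log2 fold change was 0.12. Tap1 and Tap2 form the transporter that moves peptides into the endoplasmic reticulum. Tap1 was at 0.318, 0.448 and 0.373 FPKM in vehicle and 0.612, 1.03 and 1.57 FPKM in MPTP libraries, and its groups did not overlap. Tap2 overlapped, at 2.04 to 2.23 FPKM in vehicle and 2.20 to 4.08 FPKM in MPTP libraries. Tapbp, or tapasin, which bridges the transporter to empty class I molecules, was at 3.57 to 5.59 FPKM in vehicle and 6.09 to 6.92 FPKM in MPTP libraries. Psmb8, a catalytic subunit of the interferon-inducible immunoproteasome, had a log2 fold change of 0.52, with 0.549, 0.829 and 0.497 FPKM in vehicle and 0.581, 1.79 and 1.82 FPKM in MPTP libraries. Psme2 of the PA28 cap was at 5.97 to 7.34 FPKM in vehicle and 7.79 to 9.17 FPKM in MPTP libraries. All 4 tested immunoproteasome and PA28 genes were higher (median 0.33), beside all 14 constitutive proteasome core genes, whose median was 0.13 (0.04 without MPTP replicate 2, 0.08 without vehicle replicate 3 and 0.05 rescaled to the same sum). None of these genes passed over all genes tested.

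Class II molecules present extracellular antigens to CD4 T cells and in the brain are mostly made by microglia and border macrophages. All 7 tested class II genes were higher, 5 at an unadjusted p under 0.05 and 4 without overlap, with a median log2 fold change of 0.65 and 0 past the threshold. Cd74, the invariant chain, was at 1.64, 2.72 and 1.16 FPKM in vehicle and 4.15, 5.79 and 6.74 FPKM in MPTP libraries (1.22, SE 0.25, limma adjusted p = 0.508). Ctss, the cathepsin that trims the invariant chain, was at 36.7, 43.1 and 47.6 FPKM in vehicle and 59.9, 86.7 and 78.1 FPKM in MPTP libraries (0.80, SE 0.14, limma adjusted p = 0.393). H2-DMb1, a chain of the peptide editor H2-DM, was at 0.487 to 0.609 FPKM in vehicle and 1.117 to 1.81 FPKM in MPTP libraries. H2-Aa had no overlap, and H2-Ab1 and H2-Eb1 overlapped through vehicle replicate 2, at 1.15 and 1.36 FPKM there.

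The interferon-induced GTPases separated the MPTP libraries from one another. All 14 tested members were higher in MPTP, all 14 at an unadjusted p under 0.05 and 11 without overlap, with a median log2 fold change of 1.21 and 0 past the threshold. These counts include Iigp1 and Gbp6, which passed the filter through their MPTP values. Their mean log2(FPKM + 1) was 0.95, 0.98 and 0.91 in vehicle replicates and 1.21, 2.56 and 2.58 in MPTP replicates 1, 2 and 3. MPTP replicate 1 was the lowest MPTP library for all 14, where 31.2% of all tested genes had it lowest. Igtp was at 2.17, 2.11 and 2.22 FPKM in vehicle and 2.61, 11.3 and 11.02 FPKM in MPTP libraries. Gbp4, a guanylate-binding protein, was at 0.529, 0.489 and 0.407 FPKM in vehicle and 0.878, 5.62 and 5.95 FPKM in MPTP libraries. In both genes MPTP replicate 1 lay just above the vehicle libraries and MPTP replicates 2 and 3 far above. Igtp shares 162 exonic bases with Irgm2. Gbp3 was at 2.63, 8.97 and 8.18 FPKM in MPTP replicates 1, 2 and 3, against 1.78 to 2.04 FPKM in vehicle. Irgm1, which regulates other immunity-related GTPases, was at 1.98, 4.94 and 5.39 FPKM in MPTP libraries, against 1.36 to 1.45 FPKM in vehicle. Tgtp1 and Tgtp2 are near-identical and their reads cannot be assigned with certainty. Tgtp2 was at 0.672, 0.601 and 0.390 FPKM in vehicle and 0.947, 8.03 and 8.79 FPKM in MPTP libraries. Gbp7 overlapped, since MPTP replicate 1 (1.30 FPKM) lay below the lowest vehicle library (1.42 FPKM).

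Without MPTP replicate 1, 30 genes passed as higher (0.188% of those tested) and 2 as lower (0.0125%), against 2 and 0 with it. Without MPTP replicate 2 or MPTP replicate 3, 0 genes passed. MPTP replicate 1 was the lowest MPTP library for all 14 GTPases and for every other of the 30 genes except Igfbp2. In the 2 lower genes it was the highest. Calls without it therefore describe the other libraries and are no further evidence of a change. The 30 included 12 of the 14 GTPases, whose median log2 fold change went from 1.21 to 1.67, 5 class I genes, 6 antiviral genes, Irf7 and Ctss. The remaining higher genes were Igfbp2 and 4 chosen after their values were seen. These were Cd274, the ligand PD-L1 of the T cell receptor PD-1, Tnfsf10, the death ligand TRAIL, Luc7l and Gm12250. Cd274 was at 1.05, 0.914 and 0.645 FPKM in vehicle and 1.03, 3.66 and 3.68 FPKM in MPTP libraries. Of the 2 lower genes, Mettl7a1 was at 9.42, 11.7 and 9.70 FPKM in vehicle and 11.6, 2.57 and 2.06 FPKM in MPTP libraries, and Xpnpep3 was also chosen after its values were seen. In Cd274 and Mettl7a1, MPTP replicate 1 was near the vehicle level. With MPTP replicate 2 or 3 left out the GTPase median was 0.96 and 0.97, and 10 of 14 had an unadjusted p under 0.05 in either fit.

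**Figure D3:**
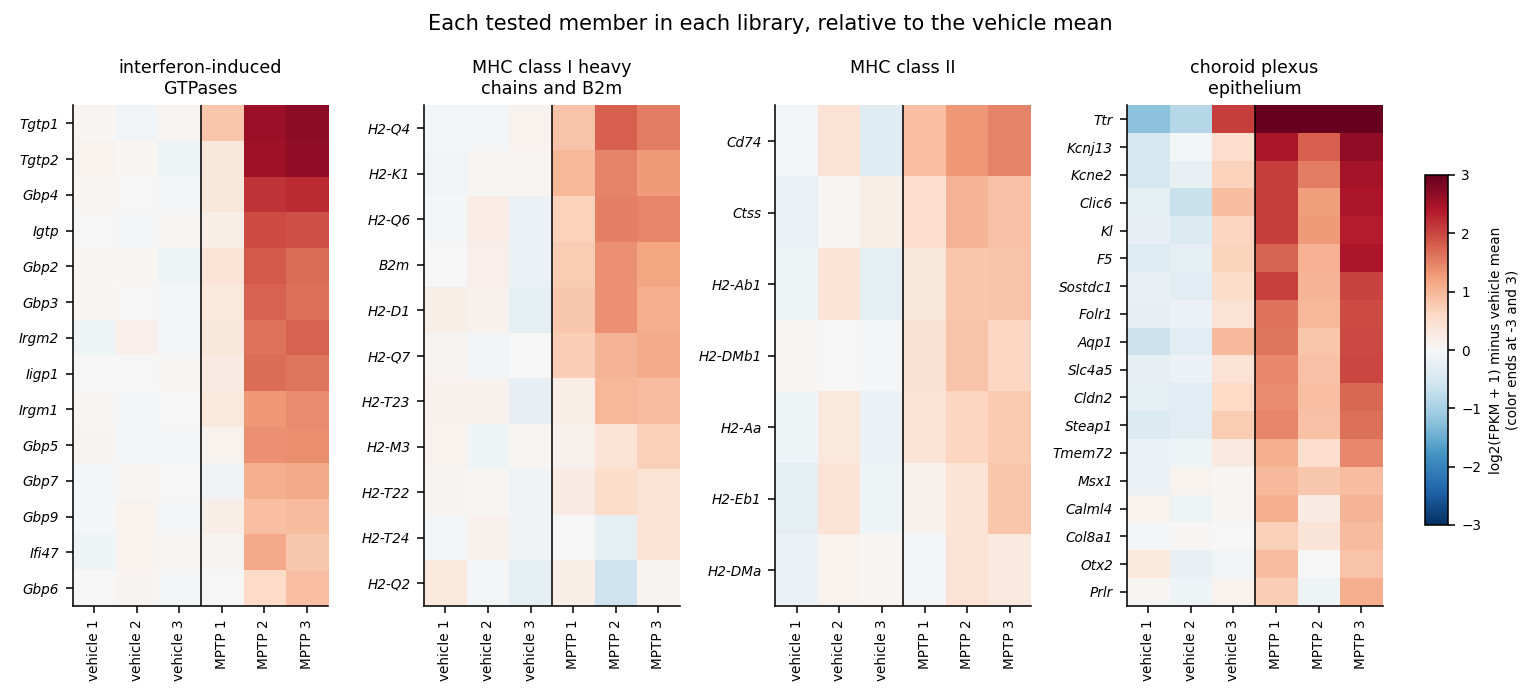
Color shows log2(FPKM + 1) minus the vehicle mean for each tested member of 4 lists (rows) in each of 6 libraries (columns), with colors ending at -3 and 3. GTPases and most MHC genes (not H2-Q2 and H2-T24) are lowest of the MPTP columns in replicate 1, and choroid plexus genes are lowest of them in replicate 2, with Ttr past the end of the color scale.

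Antiviral genes induced by interferon had the same direction. All 33 tested members were higher in MPTP libraries, 19 at an unadjusted p under 0.05 and 17 without overlap, with a median log2 fold change of 0.45 and 0 past the threshold. MPTP replicate 1 was the lowest MPTP library for 30 of 33. Bst2, or tetherin, which holds budding virus at the cell surface, was at 1.79, 2.43 and 2.47 FPKM in vehicle and 7.28, 14.6 and 20.7 FPKM in MPTP libraries (2.14, SE 0.32, limma adjusted p = 0.223). Ifi27 was at 10.4, 10.1 and 11.3 FPKM in vehicle and 19.3, 27.9 and 28.9 FPKM in MPTP libraries (1.17, SE 0.16, limma adjusted p = 0.153). For both, every MPTP library lay far outside the vehicle range. Its relative Ifi27l2a was at 1.35, 2.05 and 1.21 FPKM in vehicle and 3.56, 11.8 and 15.7 FPKM in MPTP libraries. Lgals3bp, a secreted galectin-binding glycoprotein, was at 3.95, 3.75 and 3.94 FPKM in vehicle and 9.80, 12.4 and 31.7 FPKM in MPTP libraries, so its group mean leaned on MPTP replicate 3. Ifit3, of the family that binds viral RNA, was at 7.73, 7.40 and 6.90 FPKM in vehicle and 9.31, 19.02 and 28.5 FPKM in MPTP libraries. Isg15, a ubiquitin-like modifier, was at 1.76, 2.55 and 1.85 FPKM in vehicle and 3.02, 5.65 and 6.05 FPKM in MPTP libraries. Ifitm3, which blocks viral entry, was at 10.2, 13.4 and 13.2 FPKM in vehicle and 15.4, 28.5 and 41.5 FPKM in MPTP libraries. Oas1a, which makes the activator of RNase L, had groups without overlap and a log2 fold change of 0.74. When MPTP replicate 2 was left out, 31 of 33 were higher and the median was 0.43, and without MPTP replicate 3 the median was 0.30.

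None of the 10 interferon ligands on the list was high enough to be tested. Summed, they were at 0, 0.0479 and 0.118 FPKM in vehicle and 0, 0 and 0.0326 FPKM in MPTP libraries, and Ifnb1 was listed at 0 in all 6. The 5 tested receptor genes were all higher, with a median log2 fold change of only 0.05. Il10rb, a shared chain of the interferon-lambda receptor, was at 1.89 to 1.97 FPKM in vehicle and 2.17 to 2.73 FPKM in MPTP libraries, and Ifnar2 at 3.75 to 4.25 FPKM and 4.35 to 5.39 FPKM. Both shared exon bases with the annotated gene Gm21970. Of 13 kinases and transcription factors 12 were higher, 5 at an unadjusted p under 0.05, with a median of 0.22. Irf7, the interferon-induced factor that amplifies type I interferon, was at 0.471, 0.406 and 0.439 FPKM in vehicle and 1.02, 2.32 and 2.70 FPKM in MPTP libraries (1.02, SE 0.21, limma adjusted p = 0.525). Every MPTP library lay above the vehicle range. Irf1, Irf9 and Stat2 overlapped through MPTP replicate 1, with log2 fold changes of 0.54, 0.40 and 0.39. Irf8, a factor of microglia and macrophages, was at 0.468 to 0.635 FPKM in vehicle and 0.767 to 0.881 FPKM in MPTP libraries.

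Of 9 tested nucleic acid sensors 8 were higher and 3 had an unadjusted p under 0.05, with a median of 0.07. That median was 0.27 without MPTP replicate 1, 0.17 without MPTP replicate 2 (6 higher and 3 lower), 0.05 without MPTP replicate 3 (6 and 3), 0.14 without vehicle replicate 2, 0.15 without vehicle replicate 3 and 0.23 with the choroid plexus covariate. Ifih1, the MDA5 sensor of long double-stranded RNA, was at 0.611, 0.630 and 0.653 FPKM in vehicle and 0.937, 1.18 and 1.53 FPKM in MPTP libraries. Eif2ak2, the kinase PKR, was at 1.62 to 1.91 FPKM in vehicle and 2.20 to 4.04 FPKM in MPTP libraries. Neither overlapped between groups, and neither passed over all genes. Of 7 genes that restrain the pathway 4 were higher. Usp18, which removes ISG15 and blocks the receptor, was at 0.416 to 0.632 FPKM in vehicle and 0.515, 1.05 and 1.73 FPKM in MPTP libraries, so the groups overlapped.

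Genes of the insulin-like growth factor axis showed no common direction around Igfbp2. Of 14 tested, 6 were higher and 8 lower, and the median log2 fold change was -0.08 (-0.02 without MPTP replicate 2, -0.18 without MPTP replicate 3, -0.21 without vehicle replicate 1 and 0.04 without vehicle replicate 3). Insr, the insulin receptor, was the other member with an unadjusted p under 0.05. It was at 5.35, 4.81 and 5.34 FPKM in vehicle and 2.69, 1.34 and 3.04 FPKM in MPTP libraries (-0.92, SE 0.18, limma adjusted p = 0.508), and all 3 MPTP libraries lay below all vehicle libraries. Igf1, the ligand, was at 1.60, 1.10 and 2.04 FPKM in vehicle and 1.001, 1.122 and 1.11 FPKM in MPTP libraries, which overlapped. Igf1r, its receptor, was at 4.84 to 5.32 FPKM and 3.36 to 5.01 FPKM, and Irs1, the adaptor of both receptors, at 2.65 to 2.79 FPKM and 1.91 to 2.63 FPKM, the latter without overlap. Igf2, which is made by choroid plexus and meninges as well as other tissues, was at 8.30 to 19.3 FPKM in vehicle and 14.7 to 21.8 FPKM in MPTP libraries, mostly over exons shared with another annotated gene. Among binding proteins, Igfbp5 was at 34.5 to 39.2 FPKM in vehicle and 29.7 to 34.0 FPKM in MPTP libraries, below it without overlap (log2 fold change -0.20, limma adjusted p = 0.991).

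Lists of microglial markers had smaller medians than those of interferon targets. All 14 tested complement genes were higher, with a median log2 fold change of 0.19 (0.31 without vehicle replicate 2), and 3, the chains of C1q that start the classical pathway, had an unadjusted p under 0.05. C1qa was at 23.9, 27.4 and 30.04 FPKM in vehicle and 30.3, 41.4 and 37.1 FPKM in MPTP libraries, where MPTP replicate 1 lay just above vehicle replicate 3. C1qb and C1qc overlapped. Of 17 genes of activated microglia 16 were higher (median 0.15), 4 at an unadjusted p under 0.05. Cd52, a surface glycoprotein of leukocytes, was at 0.643, 0.754 and 0.457 FPKM in vehicle and 1.53, 2.03 and 1.37 FPKM in MPTP libraries (0.70, SE 0.12, limma adjusted p = 0.355). The lysosomal protease Ctsd was at 140 to 142 FPKM in vehicle and 169 to 177 FPKM in MPTP libraries, and the tetraspanin Cd63 at 9.05 to 10.3 FPKM and 11.9 to 12.3 FPKM. Homeostatic microglia genes had a median of 0.08, with 11 of 14 higher and 0 at an unadjusted p under 0.05 in limma. Without vehicle replicate 1 they were 7 higher and 7 lower (median 0.0050), and with the choroid plexus covariate 4 higher and 10 lower (median -0.08). Leaving out MPTP replicate 2 gave a median of 0.03, and leaving out MPTP replicate 1 or vehicle replicate 3 one of 0.19 or 0.18.

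Few lymphocyte markers reached the filter. Of 13 T and natural killer cell markers 1 (Cd4) reached the filter, at 0.430 to 1.78 FPKM in vehicle and 0.110 to 2.90 FPKM in MPTP libraries, and Cd3e, Cd3d and Cd3g of the T cell receptor complex did not exceed 0.104 FPKM. Of 7 B cell markers 1 was tested, the immunoglobulin heavy chain Ighm, at 7.68, 17.8 and 11.3 FPKM in vehicle and 19.2, 27.3 and 10.4 FPKM in MPTP libraries (log2 fold change 0.57), which overlapped. Ms4a1, the B cell antigen CD20, did not exceed 0.0125 FPKM in any of the 6 libraries. Among 7 tested cytokines and chemokines 5 were higher. Ccl12, a monocyte chemoattractant, was at 0.264, 0.559 and 0.222 FPKM in vehicle and 0.527, 1.70 and 2.04 FPKM in MPTP libraries, which overlapped. Endothelial markers had a median of 0.07 (14 of 18 higher), and Ly6a, which interferons also induce, was at 14.8, 8.77 and 7.37 FPKM in vehicle and 10.8, 28.7 and 23.7 FPKM in MPTP libraries. The level of Ly6a thus separated MPTP replicates 2 and 3 from MPTP replicate 1, as the GTPases did.

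**Figure D4:**
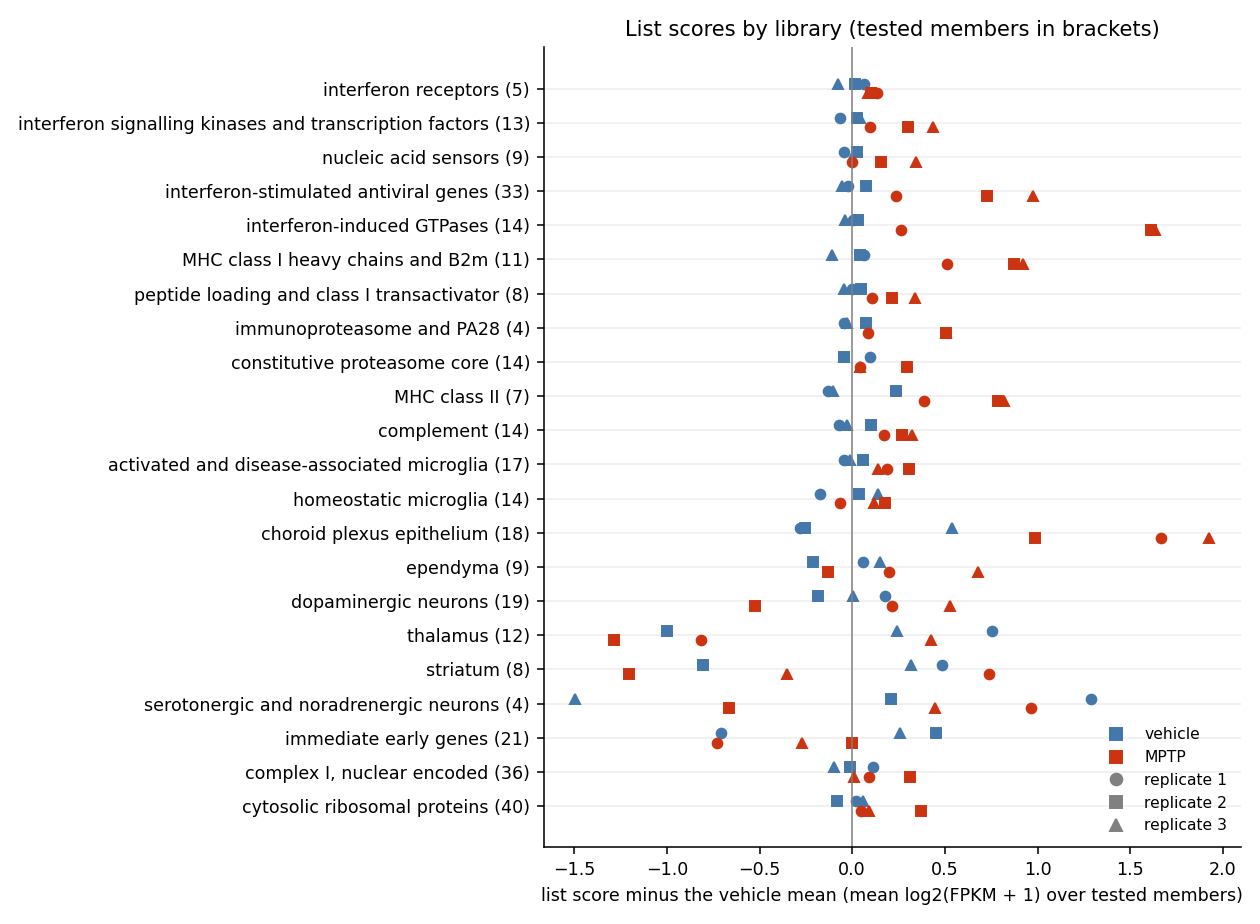
List score (mean log2(FPKM + 1) over tested members, relative to the vehicle mean) for 22 lists in each library, with the number of tested members in brackets. GTPase scores of vehicle libraries span 0.91 to 0.98 before centring while those of MPTP libraries span 1.21 to 2.58, and scores of thalamus, striatum and serotonergic neurons are spread widely within both groups.

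The other list with large differences was that of the choroid plexus, the epithelium in the ventricles that secretes cerebrospinal fluid. All 18 tested members were higher in MPTP libraries, 16 at an unadjusted p under 0.05 and 15 without overlap, with a median log2 fold change of 1.46 and 0 past the threshold. Ttr, the transthyretin that carries thyroid hormone in the fluid, was at 32.0, 41.9 and 328 FPKM in vehicle and 1676, 929 and 2011 FPKM in MPTP libraries. Kl, or klotho, was at 0.725, 0.540 and 2.19 FPKM in vehicle and 7.63, 3.92 and 9.49 FPKM in MPTP libraries, and Clic6, a chloride channel protein, at 1.43, 0.844 and 4.55 FPKM and 11.3, 5.98 and 14.7 FPKM. In these genes vehicle replicate 3 was highest of its group and MPTP replicate 2 lowest of its group. Enpp2, or autotaxin, which oligodendrocytes also express, was at 71.0, 57.7 and 70.6 FPKM in vehicle and 191.7, 135 and 212 FPKM in MPTP libraries (1.40, SE 0.22, limma adjusted p = 0.252), and passed with the replicate block (adjusted p = 0.0415). Msx1 was at 0.298 to 0.585 FPKM in vehicle and 1.57 to 1.86 FPKM in MPTP libraries. Ciliated ependymal cells, which line the ventricles, showed a median of 0.35 with 7 of 9 markers higher, and Mia had no overlap.

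The choroid plexus score thus moved with the interferon and MHC lists between the groups, at 0.83, 0.86 and 1.65 in vehicle and 2.78, 2.10 and 3.04 in MPTP replicates 1, 2 and 3. Within the MPTP group the orders differed: MPTP replicate 2 was lowest for all 18 choroid plexus genes and MPTP replicate 1 for all 14 GTPases. Of all 15997 tested genes, MPTP replicate 2 was the lowest MPTP library for 6635 and MPTP replicate 1 for 4998. With the choroid plexus score as covariate the GTPase median was 1.40, the class I median 1.05, the class II median 0.80 and the antiviral median 0.48, each at or above its value without it. Single antiviral genes moved either way. Bst2 fell from 2.14 to 1.71, Lgals3bp from 1.78 to 1.09, Ifitm3 from 1.06 to 0.70, Ifi27 from 1.17 to 1.01 and Ifi27l2a from 1.98 to 1.93. Isg15 rose from 0.92 to 1.19, Ifit3 from 1.13 to 1.22 and Oas1a from 0.74 to 0.95. The median of nucleic acid sensors rose from 0.07 to 0.23. That of kinases and transcription factors fell from 0.22 to 0.13, and Irf7 among them from 1.02 to 0.87. Antiviral genes at an unadjusted p under 0.05 in limma went from 19 to 11, GTPases from 14 to 12 and class I genes from 9 to 8. The median over the choroid plexus list itself was then 0.04, as its own covariate. The score did not overlap between the groups, so this fit could not fully part it from the treatment. The part of choroid plexus tissue in the other results was not tested. With the score as covariate, the log2 fold change of Enpp2 was 0.73, of Msx1 0.48 and of Igf2 0.28.

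Dopaminergic markers did not separate the groups. Of 19 tested, 14 were higher and 5 lower, 0 had an unadjusted p under 0.05 in limma and 0 were without overlap, with a median log2 fold change of 0.07. This direction did not hold without MPTP replicate 3 (6 higher and 13 lower, median -0.08) or with the choroid plexus covariate (6 and 13, median -0.28), and without MPTP replicate 2 the median was 0.37 (17 and 2). It was 0.21 without vehicle replicate 1 and between 0.02 and 0.04 when MPTP replicate 1 or one of vehicle replicates 2 and 3 was left out. Th was at 5.30, 2.97 and 15.6 FPKM in vehicle and 5.93, 1.64 and 12.5 FPKM in MPTP libraries (-0.25, 95% interval -1.76 to 1.25, limma adjusted p = 0.993). Slc6a3, the dopamine transporter, was at 3.40, 1.41 and 10.8 FPKM in vehicle and 2.75, 0.0377 and 14.4 FPKM in MPTP libraries (-0.35, 95% interval -3.04 to 2.34, limma adjusted p = 0.993). The 2 genes followed the replicate number more than the group, with replicate 3 high and replicate 2 low in both groups. Slc18a2, the vesicular monoamine transporter, was at 8.38, 4.73 and 3.62 FPKM in vehicle and 7.44, 1.46 and 10.7 FPKM in MPTP libraries (-0.01, 95% interval -1.23 to 1.21). Ddc, the decarboxylase that completes dopamine synthesis, was at 9.34, 5.05 and 4.61 FPKM in vehicle and 7.55, 2.48 and 11.9 FPKM in MPTP libraries (0.04, 95% interval -0.97 to 1.06). The intervals of Th, Slc6a3 and Slc18a2 include a change of 1 log2 unit in either direction. With the replicate number as a block the interval of Th was -1.26 to 0.75 over 9 libraries and -0.65 to 0.14 over the 6 MPTP and vehicle libraries. That of Slc6a3 was -1.32 to 0.61 and -1.12 to 0.41, and that of Slc18a2 -1.35 to 1.33 and -1.21 to 1.19. Every one of these includes 0. Maob, which converts MPTP, was at 11.1 to 18.3 FPKM in vehicle and 11.1 to 17.5 FPKM in MPTP libraries (0.01, 95% interval -0.51 to 0.53 without the block).

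Ferroptosis, an iron-dependent death through lipid peroxides, and lipoxygenase 12 are named by the study. Of 19 tested ferroptosis genes 15 were higher, 1 at an unadjusted p under 0.05, with a median of 0.12 (0.05 without MPTP replicate 2). That gene was Gpx4, the peroxidase that removes lipid peroxides, at 113, 109 and 102 FPKM in vehicle and 136, 157 and 121 FPKM in MPTP libraries (0.34, SE 0.12, 95% interval 0.06 to 0.62, limma adjusted p = 0.991). Slc7a11, the cystine transporter, was at 2.80, 3.71 and 3.96 FPKM in vehicle and 3.09, 3.40 and 3.72 FPKM in MPTP libraries (-0.02, 95% interval -0.36 to 0.32). Alox12 was too low to be tested, at 0.172, 0.196 and 0.187 FPKM in vehicle and 0.232, 0.164 and 0.144 FPKM in MPTP libraries. Alox5 was at 0.215 to 0.245 FPKM and 0.145 to 0.238 FPKM in the same order of groups.

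**Figure D5:**
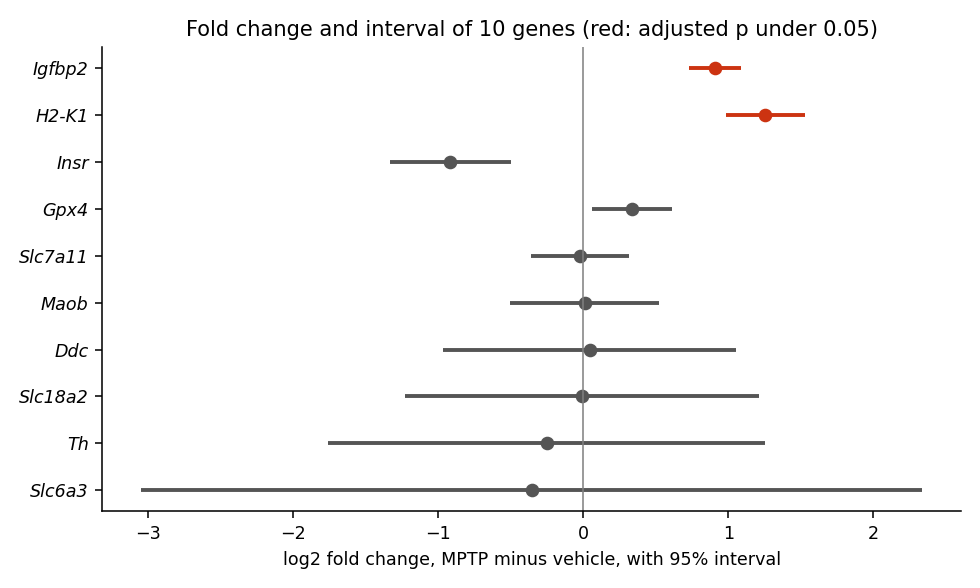
Log2 fold change (MPTP minus vehicle) with its 95% interval from limma without the replicate block for 10 genes, with the 2 genes past adjusted p 0.05 in red. The intervals of Th and Slc6a3 span more than 3 log2 units, against under 0.6 for Igfbp2 and H2-K1.

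Lists of housekeeping functions had small medians. All 36 nuclear genes of complex I, the target of MPP+, were higher (median 0.14, 0 at an unadjusted p under 0.05 in limma), as were 38 of 40 cytosolic ribosomal protein genes (median 0.18) and 11 of 13 mitochondrially encoded genes (median 0.12). Without MPTP replicate 2 the complex I median was 0.05 (28 of 36 higher) and the ribosomal median 0.08, and without vehicle replicate 3 the complex I median was 0.08. With libraries rescaled to the same sum, 27 of 36 complex I genes were higher (median 0.07), the ribosomal median was 0.10 and the mitochondrially encoded median 0.05. With quantile normalization 6 mitochondrially encoded genes were higher and 7 lower. MPTP replicate 2 had the highest score for complex I (5.24, against 4.83 to 5.04 in the other 5 libraries) and for ribosomal proteins (6.36, against 5.91 to 6.08). Rescaling all libraries to the same sum moved the median of all genes by -0.06, and shifts of this size are to be read against that. Genes of the unfolded protein response (9 of 15 higher, median 0.04), p53 targets (4 of 10, -0.06) and genes of familial Parkinson disease (11 of 20, 0.02) were near the median of all genes. Of cell death genes of the inflammasome list, Casp8 was at 0.717 to 1.16 FPKM in vehicle and 1.15 to 1.79 FPKM in MPTP libraries.

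Among lists with lower medians, all 12 thalamus genes (median -0.55) and all 8 striatum genes (-0.28) were lower in MPTP, none with an unadjusted p under 0.05. Without MPTP replicate 2 these medians were -0.14 and 0.21, and without vehicle replicate 1 they were -0.27 and -0.04, so their direction or size rested on single libraries. Of 21 immediate early genes, which neurons switch on with activity or handling, 18 were lower (median -0.35). Dusp1, a phosphatase that ends kinase signalling, was at 5.76, 9.92 and 10.54 FPKM in vehicle and 3.38, 4.91 and 6.14 FPKM in MPTP libraries, and Ccn1 at 1.76, 3.92 and 5.42 FPKM and 0.903, 1.48 and 2.12 FPKM. Both overlapped through vehicle replicate 1, and the list median was -0.12 without vehicle replicate 2 and -0.63 without vehicle replicate 1. Ddit4 and Sgk1, which glucocorticoids induce, were without overlap, with log2 fold changes of -0.57 and -0.60, each highest in vehicle replicate 1 (31.2 and 28.7 FPKM). On the list of glucocorticoid-induced genes, which holds Sgk1 but not Ddit4, 4 of 11 were higher and 7 lower (median -0.07). The clock gene Per3 was at 5.16 to 5.50 FPKM in vehicle and 4.43 to 4.72 FPKM in MPTP libraries. Of 14 tested clock genes 6 were higher and 8 lower (median -0.05). Cholinergic Slc5a7, the choline transporter, was at 0.992 to 1.68 FPKM in vehicle and 2.76 to 5.41 FPKM in MPTP libraries. It was the only 1 of 6 tested cholinergic and motor neuron genes with an unadjusted p under 0.05 in limma. Of the 6, 4 were higher and 2 lower, with a median of 0.49 (0.24 to 0.74 when 1 library was left out). Gja1, an astrocyte gap junction protein, was at 23.2 to 26.9 FPKM in vehicle and 25.8, 13.8 and 8.08 FPKM in MPTP replicates 1, 2 and 3. It was the only 1 of 11 tested astrocyte genes with an unadjusted p under 0.05 in limma. Of the 11, 6 were higher and 5 lower, with a median of 0.006.

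No gene passed as lower, and the genes named next are those with the smallest p on that side beside Insr. Hnrnpa3, an RNA-binding protein of pre-mRNA, was at 49.3, 42.8 and 49.8 FPKM in vehicle and 24.5, 21.1 and 26.1 FPKM in MPTP libraries (-0.96, SE 0.19, limma adjusted p = 0.508). Uqcc1, an assembly factor of complex III, was at 11.4, 9.61 and 9.09 FPKM in vehicle and 4.83, 4.66 and 7.51 FPKM in MPTP libraries. Paqr7, a membrane progestin receptor, was at 17.5, 10.7 and 12.5 FPKM in vehicle and 8.39, 7.84 and 6.31 FPKM in MPTP libraries. Prrc2c was at 11.5 to 12.4 FPKM in vehicle and 6.25 to 9.28 FPKM in MPTP libraries. In all 4 the groups did not overlap, and MPTP replicate 1 was not set apart from the other MPTP libraries. On the higher side Perp, a p53-induced protein of cell junctions, was at 1.72, 1.95 and 1.97 FPKM in vehicle and 4.12, 3.18 and 3.999 FPKM in MPTP libraries (0.72, SE 0.11, limma adjusted p = 0.223).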

How the data were processed

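The members and the gene lists were chosen with earlier results of these data known. The table used holds gene FPKM as deposited by the authors. Per the labels' protocols, mRNA was captured with magnetic beads and libraries were run on a NovaSeq6000. The submitters' processing notes name bcl2fastq, HTSeq, DESeq2 and the build GRCm38. Aligner, FPKM tool and strandedness: not given in the sources used here. For 95.3% of 10524 genes with several isoforms, the deposited FPKM times the merged exon length (GENCODE M21) was a whole multiple of 0.000001 (tolerance 0.01), so gene values behave as sums over isoforms divided by merged exon length. Low values were whole steps for too few genes (42.3% to 44.3%, tolerance 0.05) to recover reads, so no count test was run. Groups came from the labels, and 55154 genes had a symbol.

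Tests used limma 3.58.1 in R 4.3.3 on log2(FPKM + 1) with an intensity-dependent prior variance, all 9 libraries in 1 fit (6 residual and 2.68 prior degrees of freedom), and two-sided p adjusted by Benjamini-Hochberg over 15997 genes. The 95% intervals use 8.68 degrees of freedom. Same-numbered MPTP and vehicle libraries deviated together from their group means (correlations 0.25, 0.33 and 0.11 for replicates 1, 2 and 3). MPTP replicate 3 deviated more with vehicle replicate 1 (0.17) than with vehicle replicate 3. MPTP replicate 2 with vehicle replicate 3 was at 0.08, and the remaining pairs were at -0.35 to -0.08. This pairing comes from the data and not the labels and is weak for replicate 3, so the replicate block is only read beside the results. On simulated data with 200 of 15997 genes changed between MPTP and vehicle, the fit recovered 76.3% of those set to 1 log2 unit and 95.1% where 2 units were set. Of the genes called, 5.75% and 4.16% were false. Changed genes had a mean log2(FPKM + 1) above 1, and the noise was independent between libraries and genes, without differences in tissue content. With 200 true changes the adjusted threshold is also easier to pass, so these shares do not give the power in the data. Lists were described by counts and medians, with no set test. Named genes are those past the threshold, the 12 smallest p without overlap and a mean of at least 1 FPKM in each direction, the 8 largest fold changes among those with an unadjusted p under 0.05, up to 12 genes past the threshold without MPTP replicate 1, up to 4 members of each list with the smallest p (8 for interferon, MHC and growth factor lists), and dopaminergic and ferroptosis genes of the study's question. The rules of smallest p without overlap and largest fold change took only genes with an official symbol, so names of the Gm, Rik, Mir or accession kind were left out. All class I and growth factor list members could be named. Gbp5, Gbp7, Ifit1, Ifit3, Ifitm3, Prkcd and the markers under the filter were named after their values were seen. Promoter sequences are RefSeq's. Alternatives changed the pseudocount, filter, scaling, variance model, weights, threshold, covariate, block and libraries. Figures were drawn with matplotlib 3.10.9 in Python 3.11.15. The values of 1 gene are not reported here.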

Additional observations from a re-analysis of the deposited data

How the results depend on the processing

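The 104 named genes were refitted under up to 23 alternatives, and 95 never changed sign. Igfbp2 passed the threshold in 14 of 23 alternatives (log2 fold change 0.84 to 1.02) and H2-K1 in 11 of 23 (1.14 to 1.38). The count of higher genes, 2, became 0 with MPTP and vehicle libraries only, 0 with the replicate block on those 6 libraries (all 15997 genes tested in each) and 0 with the choroid plexus score as covariate. When 1 library was left out it ranged from 0 to 30, and the count of lower genes, 0, from 0 to 2. At an adjusted p of 0.10 the counts stayed at 2 and 0. The block changed no other call than those given for Igfbp2, H2-K1 and Enpp2. Of 504 medians over 22 lists and these alternatives, 27 moved by more than the spread between libraries, and the cause was not tested.

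Signs changed in 9 genes. With array weights, Th was at 0.14, Slc6a3 at 0.14, Slc18a2 at 0.42 and H2-Q2 at 0.10 (log2 fold changes here and below). With quantile normalization Slc18a2 was at 0.029. With values rescaled to the same sum, Ddc was at -0.018, Maob at -0.062 and H2-T24 at -0.003345. With the choroid plexus covariate, Ttr was at -0.61, Ddc at -0.39, Maob at -0.43 and H2-T24 at -0.027. When 1 library was left out, Th ranged from -0.802 to 0.372, Slc6a3 from -1.34 to 0.603, Slc18a2 from -0.463 to 0.661, Ddc from -0.371 to 0.576, Slc7a11 from -0.137 to 0.0546, Maob from -0.150 to 0.206, H2-Q2 from -0.268 to 0.142 and H2-T24 from -0.132 to 0.221. The cause was not tested. Depth limits genes under 1 FPKM, and with 3 libraries a group only changes large against their spread could pass.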

Other observations

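Granzyme transcripts of cytotoxic lymphocytes lay under the filter, and these genes were picked once their values had been seen. Gzmb was at 0.156, 0.166 and 0.144 FPKM in MPTP replicates 1, 2 and 3 and listed at 0 in the 3 vehicle and the 3 running libraries. Only its MPTP values brought it into the fit without a filter on mean FPKM. Its pass there (log2 fold change 0.21, limma adjusted p = 0.0108) is therefore no evidence of a change. Gzma was at 0, 0.311 and 0.503 FPKM in MPTP libraries and at 0, 0 and 0.0398 FPKM in vehicle libraries. Prf1, their partner perforin, was listed at 0 in all 3 MPTP libraries, and Nkg7 was higher in vehicle replicates 2 and 3 (0.106 and 0.130 FPKM) than in any MPTP library (at most 0.0410 FPKM). These values stand on few fragments.

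Leaving out 1 vehicle library brought calls for other genes, also picked after seeing their values. Without vehicle replicate 1, Pdxp (log2 fold change 2.77, limma adjusted p = 0.00063) and Prkacb (1.24, 0.00455) passed as higher, and without vehicle replicate 2, B3gnt2 (1.94, 0.0221) did. None of these 3 passed when all libraries were kept.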
